A study of Homo sapiens with 36 samples.

Results

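The genes described here encode collagens, laminins, integrin alpha and beta chains and 6 further matrix proteins (FN1, SPARC, DCN, LUM, EFEMP1 and FBN1), and their rule uses gene symbols and no measured value, although the group was picked with earlier results of these data known. The array annotation named 78 such genes: 43 collagens, 10 laminins, 12 integrin alpha chains, 7 integrin beta chains and the 6 matrix proteins. A gene was counted as measured if its brightest probe set exceeded 4 on the log2 scale, a level just above background, on at least 3 of the 36 arrays. That left 46 genes, made up of 20 collagens, 8 laminins, 7 alpha chains, 5 beta chains and all 6 matrix proteins, out of 11092 genes measured in all. Of the 46, 35 exceeded that level on all 36 arrays, and none passed through the arrays of 1 group alone. Of the other 32, COL1A2 and COL3A1 among them, 31 exceeded it on no array and COL24A1 on 1.

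Expression was measured on single-colour Affymetrix arrays in HK-2 cells, a single immortalized cell line from the human proximal tubule, grown in a medium with EGF, hydrocortisone, insulin and transferrin and treated close to confluence. The compounds are named CdCl, Di and Kbr in the labels, which do not spell the names out. One set of 18 arrays held cells given CdCl for 12 h or 48 h, Di for 12 h or 48 h, or vehicle for 12 h or 48 h. The other set of 18 held cells given Kbr at a high dose for 24 h or 48 h, Kbr at a low dose for 24 h or 48 h, or vehicle for 24 h or 48 h. There were 3 biological replicates in each of these 12 groups. The doses are given only as low and high for Kbr and not at all for CdCl and Di. CdCl and Di were set against the same control arrays at each time, as were both doses of Kbr, so comparisons that share a control are not independent of each other.

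The basement membrane under the tubule is a sheet in which a network of type IV collagen and a network of laminin are joined by nidogens and heparan sulphate proteoglycans. Type IV collagen molecules are trimers, of COL4A1 and COL4A2 chains in most tissues and of COL4A3, COL4A4 and COL4A5 chains in the glomerulus and parts of the tubule, and the genes of COL4A1 and COL4A2, like those of COL4A3 and COL4A4, lie head to head and start from a short stretch between them. Laminins are trimers of one alpha, one beta and one gamma chain, and integrins, which are alpha and beta pairs in the cell membrane, bind laminin, collagen or fibronectin outside the cell and link them to the cytoskeleton. The matrix proteins comprise fibronectin (FN1), the collagen-binding SPARC, the small leucine-rich proteoglycans decorin (DCN) and lumican (LUM), the fibulin EFEMP1 and the microfibril protein fibrillin-1 (FBN1).

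Replicate arrays correlated at r = 0.982 to 0.995 within their groups. As a measure of RNA integrity, the gap between the 3' and 5' probe sets of beta-actin had group means of 1.40 to 1.84 log2 units among CdCl, Di and their controls and of 0.87 to 1.06 in the Kbr set. The 6 epithelial markers were all measured, with group means of 12.65 to 13.54 for EPCAM and 4.98 to 9.07 for CDH1. With Kbr most of these fell beside the matrix genes: 4 fell and 0 rose with the high dose at 24 h, 5 fell and 1 rose (KRT18) with it at 48 h, and with the low dose 2 fell and 0 rose at 24 h and 4 fell and 1 rose (KRT18) at 48 h. With CdCl and Di at 48 h 1 and 3 of them fell and 0 rose. Only 4 of 16 proximal tubule markers were measured (SLC4A4, SLC3A1, CDH6 and PAX8), and LRP2, CUBN and AQP1 were at background. The summed linear level of those 4 was lower with each compound at 48 h: 2684 to 2767 with CdCl and 2114 to 2377 with Di, against 11320 to 12580 in their control, and 4300 to 4932 with high Kbr and 5880 to 7332 with low Kbr, against 10900 to 16230 in theirs. At 24 h it was 5511 to 7442 with high Kbr and 6855 to 9505 with low Kbr, against 8755 to 12660 in control. PAX8 went against the sum. It rose by 0.35 and 0.37 with CdCl and Di at 48 h and by 0.39 and 0.43 with high and low Kbr at 24 h. The part of these markers in the results below was not tested, and on arrays of whole cultures fewer cells of a kind and less RNA per cell cannot be told apart. Of 8 fibroblast markers 3 were measured, and these (COL1A1, DCN and LUM) are themselves among the 46 genes. PDGFRA, PDGFRB, THY1, COL1A2 and COL3A1 had group means of at most 3.20, none of 4 endothelial markers was above background, and neither were PTPRC, CD14 and CD3E.

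Most of the matrix and integrin genes fell with high Kbr at both times and with low Kbr at 48 h, while CdCl at both times and Di at 48 h moved them both ways. At 48 h of high Kbr 34 of the 46 fell and 0 rose, where 61.8% of all genes passed the test and 34.5% fell. With low Kbr at that time 33 fell and 1 rose, where 47.0% of all genes passed, 23.2% of them downward as a share of all. At 24 h the counts were 32 down and 0 up with high Kbr, against 40.7% of all genes passing and 25.3% falling, and 14 down and 0 up with low Kbr, against 15.2% passing and 8.28% falling. At 24 h of high Kbr the split of all genes was 1711 higher and 2806 lower, and 2195 higher and 2295 lower once arrays were centred on their medians. The members' split was then 0 up and 29 down. In each comparison one limma fit over all 36 arrays was used, with a threshold of 0.05 on the adjusted p, and differences below are log2 treated minus control ± the fit's SE, with 3 arrays against 3.

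With CdCl, 7 members rose and 16 fell at 12 h, and 12 rose and 12 fell at 48 h, where 43.9% and 42.7% of all genes passed. All genes leaned the same way at 12 h of CdCl, with 13.4% higher and 30.5% lower. After median centring 8 members were higher and 12 lower there. At 48 h of CdCl 20.7% of all genes were higher and 22.0% lower. With Di, 12 fell and 0 rose at 12 h, against 6.27% of all genes passing and 4.60% falling. At 48 h of Di 8 rose and 17 fell, against 43.0% of all genes passing, 19.1% higher and 23.9% lower. The shares of members called with CdCl and with Di at 48 h were thus 52.2% and 54.3%, not far above those of all genes. The median difference over the 46 was -0.04 with CdCl and -0.22 with Di at 48 h, beside -0.01 and -0.01 over all genes. With high and low Kbr at 48 h it was -1.08 and -0.81, beside -0.06 and 0.00 over all genes. At 48 h, passing differences of at least 2-fold, taken as measured, numbered 24 down and 0 up with high Kbr. They numbered 17 down and 0 up with low Kbr, 7 up and 7 down with CdCl, and 1 up and 8 down with Di. The counts for both doses of Kbr include COL4A3 and COL12A1. Their treated means were under the level just above background, so a 2-fold fall is not established for either gene.

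**Figure D1:**
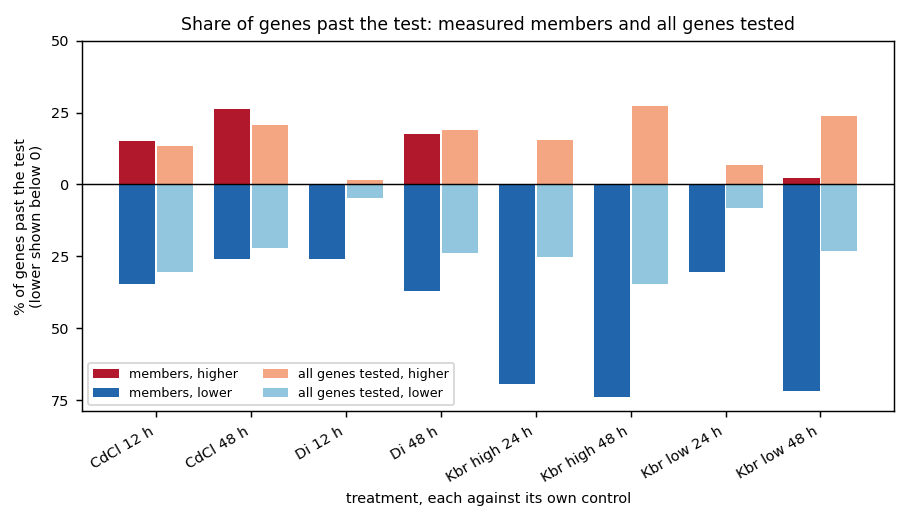
Share of the 46 matrix and integrin genes that passed the test upward and downward in each of the 8 comparisons with control, in percent, beside the same shares of all 11092 genes. The downward bars of the members reach further than those of all genes in every Kbr comparison, while the bars at 48 h of CdCl lie close to them.

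The Di 12 h count was the least settled, with 4 to 9 members passing when 1 array was left out. It fell to 4 without control replicate 3, to 5 without control replicate 2 and to 5 without Di replicate 2. The beta-actin difference averaged 1.40 ± 0.16 with Di and 1.84 ± 0.14 in control at 12 h (SD, n = 3 each), and its part in the result was not tested. All genes split 185 higher to 510 lower there, and 260 to 264 after median centring, with 8 members lower and 0 higher. For low Kbr at 24 h, 9 members passed without control replicate 1.

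**Figure D2:**
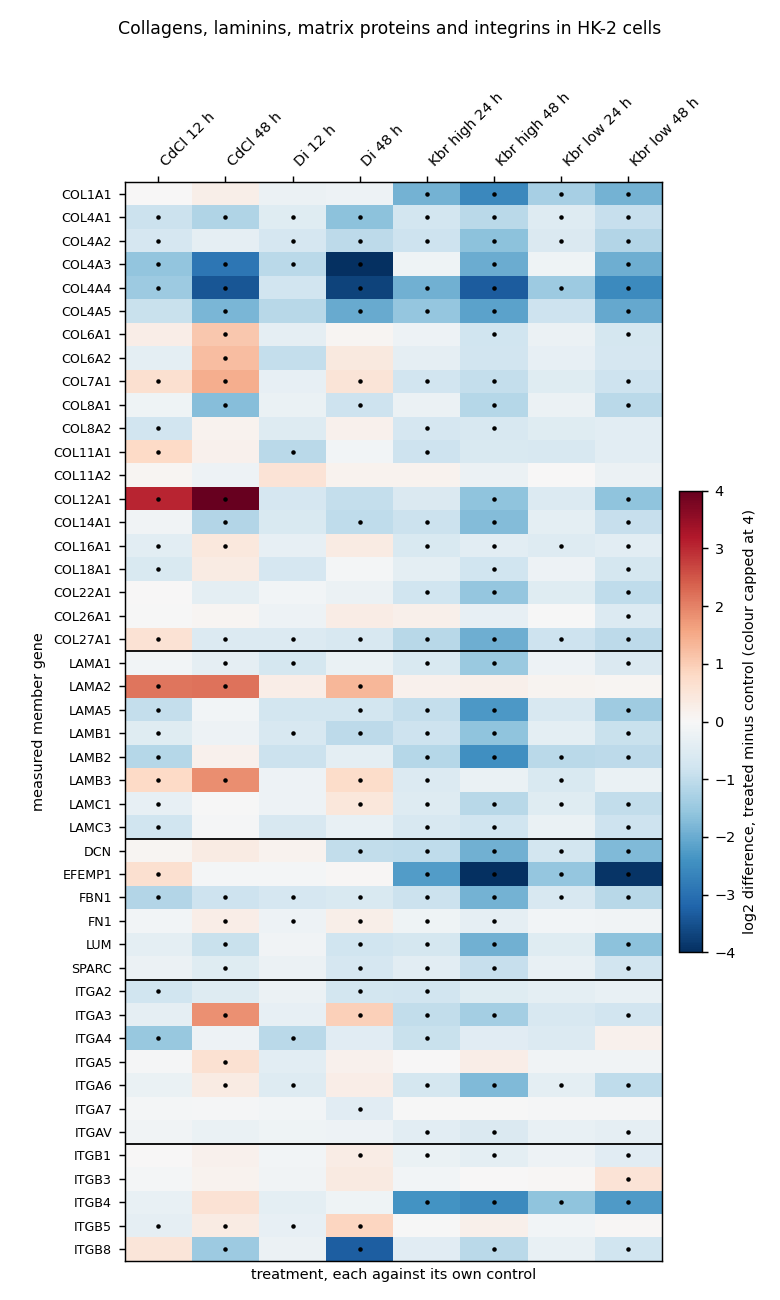
Log2 difference from the matched control for each of the 46 genes (rows, grouped by family) in the 8 comparisons with control (columns), in colour, with a dot on those that passed. The columns of Kbr are nearly all lower, and COL12A1, LAMA2 and LAMB3 stand out as higher with CdCl.

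At 48 h COL4A1, COL4A3, COL4A4 and COL4A5 of type IV collagen fell with every compound, and COL4A2 with Di and Kbr. COL4A3 read 2.95, 3.23 and 3.89 on the 3 Di arrays and 5.64, 4.25 and 5.42 on the 3 CdCl arrays at 48 h, against 8.15, 8.11 and 7.73 in their control. All 6 treated arrays lay below all 3 control arrays, and the Di arrays were below the level of 4. The difference was -4.64 ± 0.31 with Di (at least 15.98-fold lower, adjusted p = 8.02e-13) and -2.90 ± 0.31 with CdCl (7.44-fold lower, adjusted p = 1.19e-08). At 12 h COL4A3 read 5.78, 5.82 and 5.21 with CdCl and 6.34, 5.71 and 6.25 with Di, against 7.03, 7.12 and 7.39 in control. CdCl lowered it by then (-1.58 ± 0.31, adjusted p = 0.000151), and with Di the difference of -1.08 ± 0.31 passed (adjusted p = 0.0331) but not once any single array other than Di replicate 1 was left out.

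COL4A4, the partner chain, read 4.86, 5.11 and 5.004 with Di and 5.84, 4.70 and 5.35 with CdCl at 48 h, against 8.66, 8.79 and 8.66 in control. Its differences of -3.71 ± 0.35 (13.1-fold lower, adjusted p = 1.04e-09) and -3.41 ± 0.35 (10.6-fold lower, adjusted p = 6.58e-09) were again wider than the range within any of these groups. At 12 h it read 6.62, 7.25 and 6.12 with CdCl and 7.55, 7.10 and 7.41 with Di, against 8.23, 8.19 and 7.90 in control. Neither treated group overlapped control, but only the CdCl difference passed (-1.45 ± 0.35, adjusted p = 0.00144), while that of Di was -0.75 ± 0.35 (adjusted p = 0.2).

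COL4A5, which forms the trimer with both, read 5.23, 5.79 and 6.75 with Di and 6.30, 5.49 and 6.49 with CdCl, against 7.97, 8.37 and 7.44 in control at 48 h. It fell with both, with differences of -2.003 ± 0.37 and -1.83 ± 0.37 on the log2 scale, and the arrays did not overlap. At 12 h its differences of -0.88 with CdCl and -1.11 with Di did not pass (adjusted p = 0.0563 and adjusted p = 0.0718).

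In the Kbr set COL4A3 was near background even in control. It read 2.54, 2.55 and 2.56 with high Kbr and 2.55, 2.56 and 2.66 with low Kbr at 48 h, against 3.75, 5.35 and 4.50 in control, and 2.48 to 3.11 on the 9 arrays at 24 h. The control itself straddled the level of 4 at 48 h, so the differences of -1.99 ± 0.31 and -1.95 ± 0.31 amount to at least 1.45-fold at either dose. COL4A4 read 2.04, 2.14 and 2.16 with high Kbr and 2.64, 3.59 and 2.47 with low Kbr, against 4.97, 5.75 and 5.65 in control at 48 h. It fell, with differences of -3.34 ± 0.35 and -2.56 ± 0.35, which is at least 2.74-fold at either dose with the floor of 4 in place of the treated level. At 24 h its readings of 2.05, 2.05 and 2.47 with high Kbr and 2.18, 2.17 and 3.58 with low Kbr, against 3.63, 4.87 and 3.81 in control, also gave passing falls (adjusted p = 8.29e-05 and adjusted p = 0.00532), with 1 control array above 4. Without that array, control replicate 2, the low-dose call was lost (adjusted p = 0.0546), as it was when the fit held the compared groups alone (adjusted p = 0.134). COL4A5 read 4.19, 4.30 and 3.75 with high Kbr and 4.53, 3.77 and 4.28 with low Kbr, against 6.04, 6.60 and 6.07 in control, and fell, with differences of -2.15 ± 0.37 and -2.04 ± 0.37.

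COL4A1 and COL4A2, the ubiquitous chains, were among the brightest collagens. COL4A1 read 11.75, 11.82 and 11.80 with CdCl and 12.18, 12.09 and 12.21 with Di at 12 h, against 12.66, 12.69 and 12.60 in control, and 10.38, 10.52 and 10.65 with CdCl and 10.08, 10.10 and 10.06 with Di at 48 h, against 11.61, 11.90 and 11.68 in control. It passed downward in all 8 comparisons with control, without overlap in any. The Di call at 12 h was lost without control replicate 2 (adjusted p = 0.0524) or Di replicate 2 (adjusted p = 0.0527), and that of low Kbr at 24 h when the fit held the compared groups alone (adjusted p = 0.0941). Its differences ran from -0.49 ± 0.12 with Di at 12 h to -1.65 ± 0.12 with Di at 48 h (3.14-fold lower). With Kbr it read 11.22, 11.10 and 11.29 at the high dose and 11.42, 11.20 and 11.49 at the low dose at 48 h, against 12.50, 12.05 and 12.29 in control, differences of -1.08 ± 0.12 and -0.91 ± 0.12. COL4A2 read 11.000, 10.43 and 10.96 with high Kbr and 11.46, 10.87 and 11.38 with low Kbr at 48 h, against 12.73, 12.13 and 12.41 in control (-1.63 ± 0.18 and -1.19 ± 0.18). With Di at 48 h it read 10.38, 10.30 and 10.37 and with CdCl 10.97, 11.15 and 11.01, against 11.32, 11.48 and 11.40 in control. The Di difference of -1.05 ± 0.18 passed, and the CdCl difference of -0.36 ± 0.18 did not (adjusted p = 0.11). At 12 h it read 11.49, 11.58 and 11.60 with CdCl and 11.47, 11.67 and 11.55 with Di, against 12.02, 12.35 and 12.32 in control, and fell, with differences of -0.67 and -0.66. The Di call was lost in 5 of 16 alternatives, after median centring and without control replicate 2 or 3 or Di replicate 1 or 3 (adjusted p = 0.0512 to 0.108).

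The short stretches between the starts of these gene pairs are shown because each serves as the start of both genes of a pair whose values are given above. Both are on the plus strand of GRCh38.p14 and were assembled from RefSeq promoter entries, with motif matches in capitals. The stretch between COL4A1 and COL4A2, chr13:110307158-110307283, holds 126 bases with 80.2% G and C, and the one between COL4A4 and COL4A3, chr2:227164489-227164623, holds 135 bases with 68.1%.
COL4A1 and COL4A2: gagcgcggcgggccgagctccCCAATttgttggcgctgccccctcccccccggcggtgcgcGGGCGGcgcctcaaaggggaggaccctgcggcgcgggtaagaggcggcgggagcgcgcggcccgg
COL4A4 and COL4A3: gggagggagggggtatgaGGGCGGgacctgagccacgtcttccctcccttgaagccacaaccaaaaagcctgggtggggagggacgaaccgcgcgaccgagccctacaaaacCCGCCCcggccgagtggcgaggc
Both strands were searched for the CCAAT box, for the GC box with the letters GGGCGG, for the TATA box with the letters TATAAA and for the AP-1 site with the letters TGANTCA. The COL4A1 and COL4A2 stretch held 1 CCAAT box and 1 GC box, which do not overlap. The COL4A4 and COL4A3 stretch held 1 GC box on each strand and no CCAAT box, and neither stretch held a TATA box or an AP-1 site. Of 27305 RefSeq promoters cut to 126 bases, 21.9% held the CCAAT box, 34.6% the GC box, 6.23% the TATA box and 3.47% the AP-1 site, and for 135 bases these were 22.9%, 35.6%, 6.5% and 3.74%. Such matches only describe the letters in these windows.

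**Figure D3:**
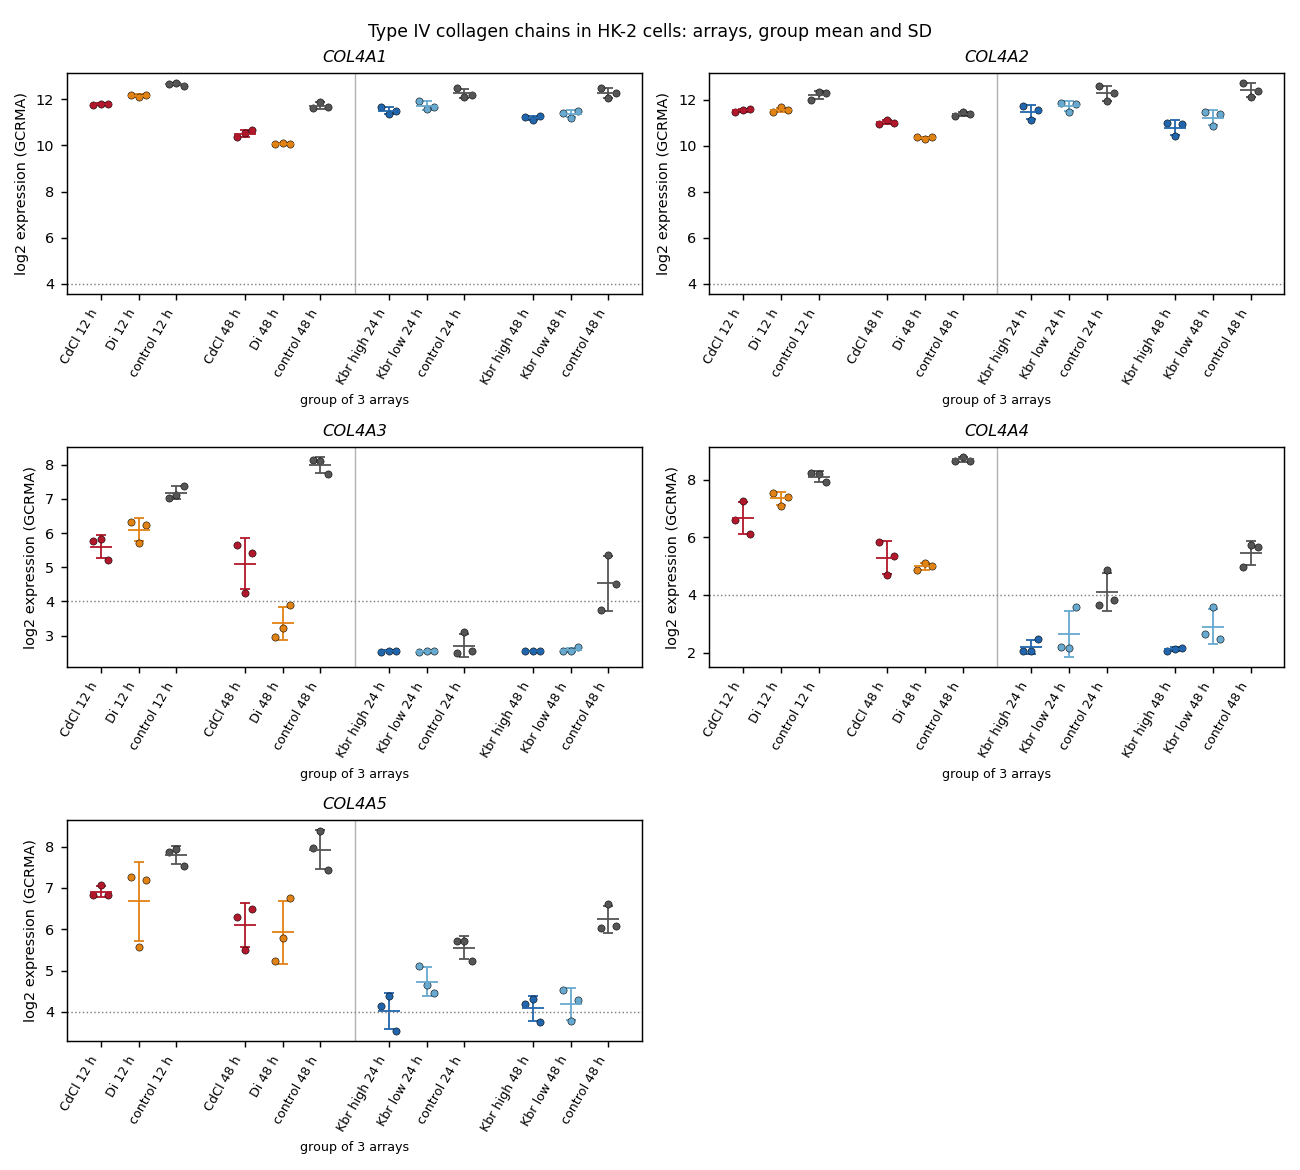
Log2 expression of the type IV collagen chains on each array (points), with the group mean and SD (line and whiskers), for the CdCl and Di set on the left and the Kbr set on the right of each panel, with the dotted line at the level of 4. COL4A3 and COL4A4 lie far below control with Di and CdCl at 48 h, and at or under the dotted line in the Kbr-treated groups.

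Outside type IV, the collagen with the largest change was COL12A1, which encodes a collagen that sits on fibril surfaces. It read 9.04, 9.09 and 9.32 with CdCl at 12 h and 9.01, 9.17 and 9.17 at 48 h, against 6.37, 5.81 and 6.08 and 4.95, 4.33 and 4.68 in control. Every CdCl array stood above every control array at both times. The rises were 3.06 ± 0.39 (8.34-fold higher, adjusted p = 4.2e-07) and 4.46 ± 0.39 (22.0-fold higher, adjusted p = 2.94e-10). With Di it read 5.81, 5.34 and 5.09 at 12 h and 4.35, 3.85 and 2.95 at 48 h, differences of -0.68 and -0.94 that did not pass (adjusted p = 0.318 and adjusted p = 0.0522). With high and low Kbr at 48 h it read 2.72, 2.73 and 3.51 and 2.91, 2.85 and 3.20, all under the level of 4, against 4.28, 4.58 and 4.95 in control, so its differences of -1.62 ± 0.39 and -1.61 ± 0.39 are at least 1.52-fold at either dose. A second COL12A1 probe set, dimmer on average, had a difference of 3.50 with CdCl at 48 h.

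COL1A1, which encodes an alpha chain of type I collagen, was lower with Kbr. It read 5.40, 5.17 and 5.17 with the high dose and 6.11, 5.74 and 5.96 with the low dose at 48 h, against 7.68, 7.79 and 8.02 in control, and 7.18, 6.77 and 6.23 and 7.72, 6.99 and 7.14 at 24 h, against 8.92, 8.52 and 8.43 in control. No treated array reached the control range at either time. The falls at 48 h were -2.58 ± 0.22 (5.99-fold lower, adjusted p = 1.07e-10) and -1.89 ± 0.22, and at 24 h -1.90 ± 0.22 and -1.34 ± 0.22. With CdCl it read 8.48, 8.24 and 8.27 at 12 h and 7.75, 7.73 and 7.80 at 48 h, and with Di 8.39, 7.62 and 8.19 and 6.79, 7.55 and 7.65, against 8.21, 8.37 and 8.35 and 7.75, 7.50 and 7.35 in control, and all 4 comparisons overlapped and did not pass. Its 2 other kept probe sets gave -0.10 and -0.67 with high Kbr at 48 h, the first of them nearly level with control.

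The network collagen COL8A1 read 9.34, 9.45 and 9.50 with CdCl and 10.11, 10.44 and 10.32 with Di at 48 h, against 11.03, 11.23 and 11.10 in control, differences of -1.69 ± 0.11 (3.23-fold lower) and -0.83 ± 0.11. It also fell with high and low Kbr at 48 h, with differences of -1.15 ± 0.11 and -1.08 ± 0.11, and in no comparison at 12 h or 24 h did it pass. COL27A1, a fibrillar collagen, rose with CdCl at 12 h (0.56 ± 0.14, 8.89 against 8.32 in control) and fell with CdCl at 48 h (-0.54 ± 0.14), with Di at both times and with Kbr in all 4 comparisons, most with the high dose at 48 h (-1.94 ± 0.14). The CdCl call at 48 h was lost with the mean of its probe sets (adjusted p = 0.119), and the Di call at 12 h in 7 of 16 alternatives, among them without control replicate 1 or 3 or Di replicate 3 (adjusted p up to 0.108). COL14A1, another fibril-surface collagen, fell at 48 h with CdCl (-1.17 ± 0.28), Di (-1.02 ± 0.28), high Kbr (-1.73 ± 0.28) and low Kbr (-0.93 ± 0.28). The last of these was lost without control replicate 2 or low-dose replicate 3 (adjusted p up to 0.0829).

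COL7A1, COL6A1 and COL6A2 went the other way with CdCl at 48 h. COL7A1, which forms the anchoring fibrils of epithelia, rose by 1.45 ± 0.20 (7.85 ± 0.08 with CdCl, 6.40 ± 0.12 in control, SD, n = 3 each), and its rises with CdCl at 12 h and Di at 48 h were 0.64 ± 0.20 and 0.52 ± 0.20. The first was lost without control replicate 3 (adjusted p = 0.0950) and the second in 6 of 16 alternatives, among them without any 1 control array or Di replicate 2 or 3 (adjusted p up to 0.119). The beaded-filament chains COL6A1 and COL6A2 rose by 1.07 ± 0.18 and 1.23 ± 0.46 with CdCl at 48 h and did not pass with Di at 48 h (0.08 and 0.40). The COL6A2 rise was lost in 7 of 16 alternatives, among them without control replicate 1 or 3 or any CdCl array (adjusted p up to 0.0884), and its other kept probe set had a difference of 0.13. With the replicate block COL6A2 fell with high and low Kbr at 48 h (-0.77 and -0.68, adjusted p = 0.000458 and adjusted p = 0.00214), where it did not pass without the block. COL6A1 fell with high and low Kbr at 48 h (-0.80 and -0.71). COL7A1 fell with high Kbr at 24 h and 48 h (-0.75 and -0.95) and with low Kbr at 48 h (-0.83). COL11A1 was near background throughout. It read 4.56, 5.003 and 5.65 with CdCl and 3.10, 3.06 and 3.42 with Di at 12 h, against 3.65, 4.89 and 4.29 in control. The CdCl arrays overlapped control and the Di arrays were all below 4, and neither call (adjusted p = 0.0234 and adjusted p = 0.0208) held without control replicate 1 or CdCl replicate 3 for CdCl (adjusted p up to 0.203) or without control replicate 2 or 3 or Di replicate 1 or 2 for Di (adjusted p up to 0.158). Among the remaining collagens, COL22A1 fell with high Kbr at 24 h and 48 h (-0.80 ± 0.21 and -1.53 ± 0.21) and with low Kbr at 48 h (-1.03). COL18A1, the source of endostatin, fell with CdCl at 12 h and both doses of Kbr at 48 h (-0.81 ± 0.24 with the high dose). Its calls with CdCl and with low Kbr were lost in 9 and 4 of 16 alternatives, among them without any 1 array for CdCl and without control replicate 1 or low-dose replicate 2 for low Kbr. COL11A2 passed in no comparison with control.

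**Figure D4:**
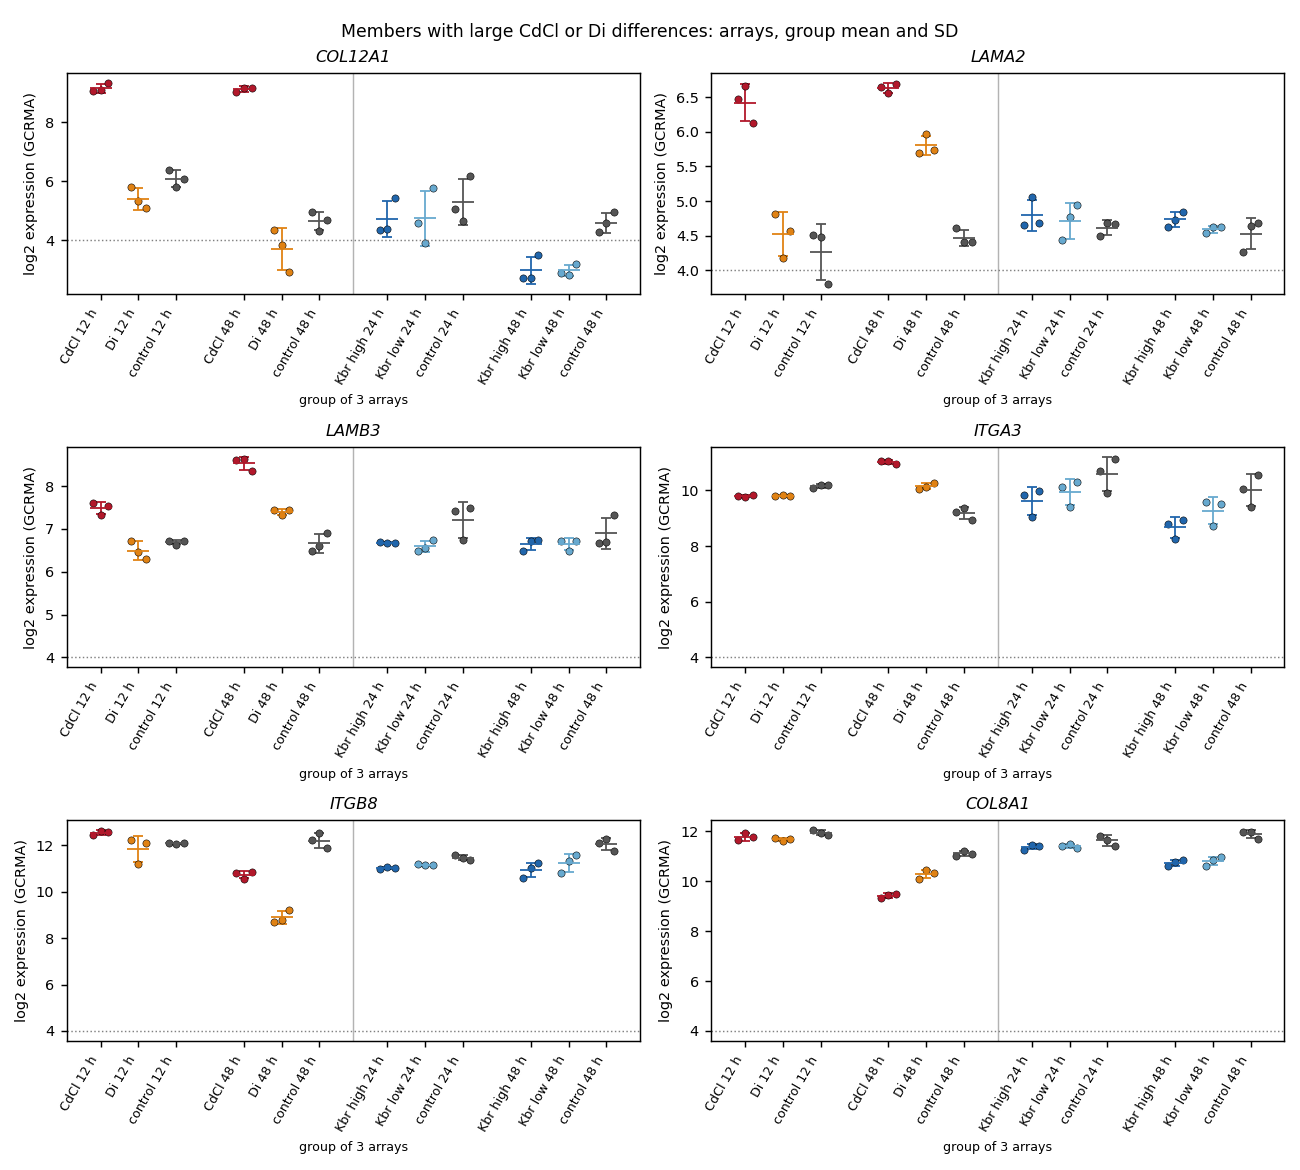
Log2 expression on each array (points), with group mean and SD, of 6 genes with large differences in the CdCl and Di set, which is on the left of each panel, with the Kbr set on the right and a dotted line at 4. COL12A1 stands well above every other group in both CdCl groups, LAMA2 and LAMB3 are higher with CdCl and, at 48 h, with Di, and ITGB8 is lowest with Di at 48 h.

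Laminin genes differed by chain and by compound. LAMA2, the alpha chain of the laminins of muscle and mesenchyme, read 6.47, 6.66 and 6.13 with CdCl at 12 h, against 4.52, 4.48 and 3.80 in control, and 6.64, 6.56 and 6.70 with CdCl and 5.70, 5.97 and 5.74 with Di at 48 h, against 4.61, 4.41 and 4.40 in control. The treated arrays lay above control in each case, and the rises were 2.15 ± 0.17 (4.45-fold higher), 2.16 ± 0.17 (4.47-fold higher) and 1.33 ± 0.17 (2.52-fold higher). At 12 h of Di it read 4.81, 4.18 and 4.57 and overlapped control, and its largest difference with Kbr was 0.21 (adjusted p = 0.312). LAMB3, the beta chain of the epithelial laminin of anchoring filaments, read 7.60, 7.32 and 7.53 with CdCl at 12 h, against 6.72, 6.63 and 6.71 in control, and 8.60, 8.63 and 8.35 with CdCl and 7.45, 7.32 and 7.44 with Di at 48 h, against 6.48, 6.61 and 6.90 in control. All passed upward without overlap (0.79 ± 0.17, 1.86 ± 0.17 and 0.74 ± 0.17). With Kbr LAMB3 was lower at 24 h, at 6.69, 6.67 and 6.67 with the high dose and 6.49, 6.55 and 6.73 with the low dose, against 7.42, 6.73 and 7.48 in control. These differences of -0.53 and -0.62 no longer passed without control replicate 1 (adjusted p = 0.0741 and 0.0809) or 3 (adjusted p = 0.0783 and 0.0599), and at 48 h they did not pass.

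The laminin chains of kidney basement membranes were lower with Kbr, and some of them also with CdCl or Di. LAMA5, an alpha chain of most mature basement membranes, read 7.15, 7.43 and 7.53 with high Kbr and 8.33, 7.76 and 8.64 with low Kbr at 48 h, against 9.93, 9.43 and 9.66 in control. It fell, with differences of -2.30 ± 0.24 (4.93-fold lower) and -1.43 ± 0.24 without overlap. LAMB2, the beta chain of the glomerular basement membrane, read 3.30, 4.13 and 3.23 with high Kbr and 5.57, 4.01 and 5.25 with low Kbr at 48 h, against 6.47, 5.56 and 5.94 in control. The high dose gave a difference of -2.44 ± 0.34 (at least 3.97-fold lower), while the low-dose arrays overlapped control by 1 array (-1.05 ± 0.34, adjusted p = 0.0125). The low-dose call was lost in 4 of 16 alternatives, among them without control replicate 1 or low-dose replicate 2 (adjusted p up to 0.162). LAMA5 and LAMB2 also fell with CdCl at 12 h (-0.97 and -1.13), and neither passed with CdCl at 48 h. LAMA5 fell with Di at 48 h as well (-0.74). LAMA1, an alpha chain first known from embryonic basement membranes, read 7.73, 7.66 and 7.71 with high Kbr and 8.67, 8.58 and 8.57 with low Kbr, against 9.23, 9.14 and 9.17 in control, with 3 separate ranges and differences of -1.48 ± 0.11 and -0.57 ± 0.11. With Di at 12 h LAMA1 read 8.37, 8.76 and 8.29, against 9.12, 9.26 and 9.14 in control, and fell, with a difference of -0.70 ± 0.11, which was not called when the fit held the compared groups alone (adjusted p = 0.0536).

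LAMB1, the beta chain of widest expression, fell, with differences of -1.60 ± 0.14 with high Kbr and -0.90 ± 0.14 with low Kbr at 48 h, and of -1.05 ± 0.14 with Di at 48 h. It also fell at 12 h with CdCl (-0.50) and Di (-0.63). The Di call at 12 h was lost in 2 of 16 alternatives (adjusted p up to 0.0706). LAMC1, the gamma chain common to most laminins, read 9.90, 9.94 and 10.13 with high Kbr and 9.997, 10.17 and 10.23 with low Kbr at 48 h, against 11.23, 11.14 and 10.94 in control, and 10.13, 10.26 and 10.24 and 10.23, 10.20 and 10.30 at 24 h, against 10.67, 10.81 and 10.71 in control. It fell in all 4 (-1.11 ± 0.11 and -0.97 ± 0.11 at 48 h). In the other set it read 10.75, 10.58 and 10.68 with Di and 10.03, 10.34 and 10.22 with CdCl at 48 h, against 10.10, 10.22 and 10.34 in control, so that it rose with Di (0.45 ± 0.11) and did not pass with CdCl (-0.03, adjusted p = 0.882). At 12 h it read 10.43, 10.52 and 10.27 with CdCl and 10.40, 10.79 and 10.37 with Di, against 10.60, 10.71 and 10.87 in control, and its fall with CdCl (-0.32) was lost in 4 of 16 alternatives, after median centring (adjusted p = 0.216), with the mean of its probe sets and without control replicate 3 or CdCl replicate 3. By family, 7 of 8 laminins fell with high Kbr at 24 h and 6 of 8 at 48 h, and 3 and 6 of 8 with low Kbr. Of all genes 25.3% and 34.5% fell with high Kbr at these times, and 8.28% and 23.2% with low Kbr. With CdCl at 12 h 2 laminins rose and 5 fell, where 13.4% of all genes rose and 30.5% fell.

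EFEMP1, a fibulin of basement membranes and elastic fibres, had the largest fall with Kbr. It read 6.20, 5.09 and 6.02 with high Kbr and 6.41, 6.02 and 6.87 with low Kbr at 24 h, against 8.08, 7.95 and 7.95 in control. At 48 h it read 2.60, 2.56 and 3.61 with high Kbr and 3.66, 4.17 and 4.23 with low Kbr, against 7.91, 8.11 and 7.83 in control. All 12 treated arrays lay below all 6 control arrays, and those of the high dose at 48 h were under the level of 4. The falls were -2.22 ± 0.23 and -1.56 ± 0.23 at 24 h, and at 48 h -5.03 ± 0.23 (at least 15.4-fold lower, adjusted p = 1.25e-15) with the high dose and -3.93 ± 0.23 (15.2-fold lower, adjusted p = 1.01e-12) with the low dose. A dimmer probe set of the gene gave -1.85 and -1.86 at 48 h.

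In the CdCl and Di set EFEMP1 moved little. It read 9.41, 9.62 and 9.46 with CdCl and 8.76, 8.86 and 8.76 with Di at 12 h, against 8.86, 8.95 and 8.80 in control, and 9.03, 8.80 and 9.10 and 9.03, 9.20 and 9.12 at 48 h, against 9.11, 9.10 and 9.01 in control. The rise with CdCl at 12 h (0.63 ± 0.23, adjusted p = 0.0302) was lost with no filter on low genes (adjusted p = 0.0594) and without either of 2 control arrays, replicates 1 and 3 (adjusted p = 0.0673 and 0.0787), or either of 2 CdCl arrays, replicates 2 and 3 (adjusted p = 0.0910 and 0.0586). The other 3 comparisons did not pass, with differences of -0.09 to 0.04.

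Decorin and lumican fell with Kbr and with Di at 48 h. DCN read 9.77, 9.73 and 10.06 with high Kbr and 9.80, 9.88 and 10.38 with low Kbr at 48 h, against 11.80, 11.79 and 11.78 in control, differences of -1.94 ± 0.15 (3.83-fold lower) and -1.77 ± 0.15. With Di at 48 h it read 10.12, 9.98 and 9.99 and with CdCl 11.24, 11.58 and 11.23, against 10.94, 10.95 and 11.15 in control. The Di arrays lay below control and the CdCl arrays just above it, and only the Di difference passed (-0.98 ± 0.15, against 0.34 ± 0.15 with CdCl, adjusted p = 0.0675). LUM fell, with differences of -1.92 ± 0.26 and -1.66 ± 0.26 with high and low Kbr at 48 h, -0.89 ± 0.26 with CdCl and -0.80 ± 0.26 with Di. The CdCl call was lost without CdCl replicate 2 (adjusted p = 0.0523), and the Di call without control replicate 2 or Di replicate 1 (adjusted p up to 0.0990). The 3 kept fibroblast markers are thus among the falling genes of Kbr, while the other 5 were at background in every group.

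FBN1, the main protein of microfibrils, passed downward in all 8 comparisons. That of low Kbr at 24 h was lost when the fit held the compared groups alone (adjusted p = 0.0709). It read 7.98, 8.11 and 8.06 with CdCl and 8.52, 8.61 and 8.51 with Di at 12 h, against 9.21, 9.31 and 9.13 in control, differences of -1.16 ± 0.14 and -0.67 ± 0.14. With high Kbr at 48 h it read 6.98, 6.75 and 6.78 and with low Kbr 7.88, 7.76 and 7.25, against 8.71, 8.98 and 8.53 in control, differences of -1.90 ± 0.14 (3.73-fold lower) and -1.11 ± 0.14. None of these groups overlapped its control. SPARC read 12.41, 12.39 and 12.38 with CdCl and 12.11, 12.14 and 12.36 with Di at 48 h, against 12.80, 12.99 and 12.85 in control, and 12.06, 11.91 and 11.95 with high Kbr and 12.25, 12.11 and 11.998 with low Kbr, against 13.04, 12.84 and 12.78 in control. It fell in each, with differences of -0.49 ± 0.11, -0.68 ± 0.11, -0.91 ± 0.11 and -0.77 ± 0.11, and at 24 h of high Kbr, where it read 12.44, 12.35 and 12.17 against 12.89, 12.75 and 12.63 in control (-0.44 ± 0.11). At 12 h it read 12.61, 12.72 and 12.62 with CdCl and 12.77, 12.46 and 12.72 with Di, against 12.84, 12.93 and 12.86 in control, and did not pass.

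FN1 was bright on every array, and its differences from control ran from -0.36 with high Kbr at 48 h to 0.26 with CdCl at 48 h. At 48 h it read 15.13, 15.13 and 15.16 with CdCl and 15.18, 15.06 and 15.16 with Di, against 14.88, 14.90 and 14.87 in control, rises of 0.26 ± 0.06 and 0.25 ± 0.06. With high Kbr at 48 h it read 14.50, 14.46 and 14.46 and with low Kbr 14.74, 14.65 and 14.71, against 14.83, 14.79 and 14.87 in control. The high-dose difference of -0.36 ± 0.06 passed and the low-dose difference of -0.13 ± 0.06 did not (adjusted p = 0.0808). At 12 h FN1 read 14.93, 14.86 and 14.88 with CdCl and 14.74, 14.88 and 14.79 with Di, against 14.95, 14.995 and 15.10 in control. Its probe sets disagreed. The 4 brightest had differences of -0.36 to -0.39 with high Kbr at 48 h, and 2 dimmer ones 1.38 and 0.77. With the mean of its probe sets the difference was 0.0039 (adjusted p = 0.981), and the passing fall at 12 h of Di was lost after median centring as well (adjusted p = 0.360).

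**Figure D5:**
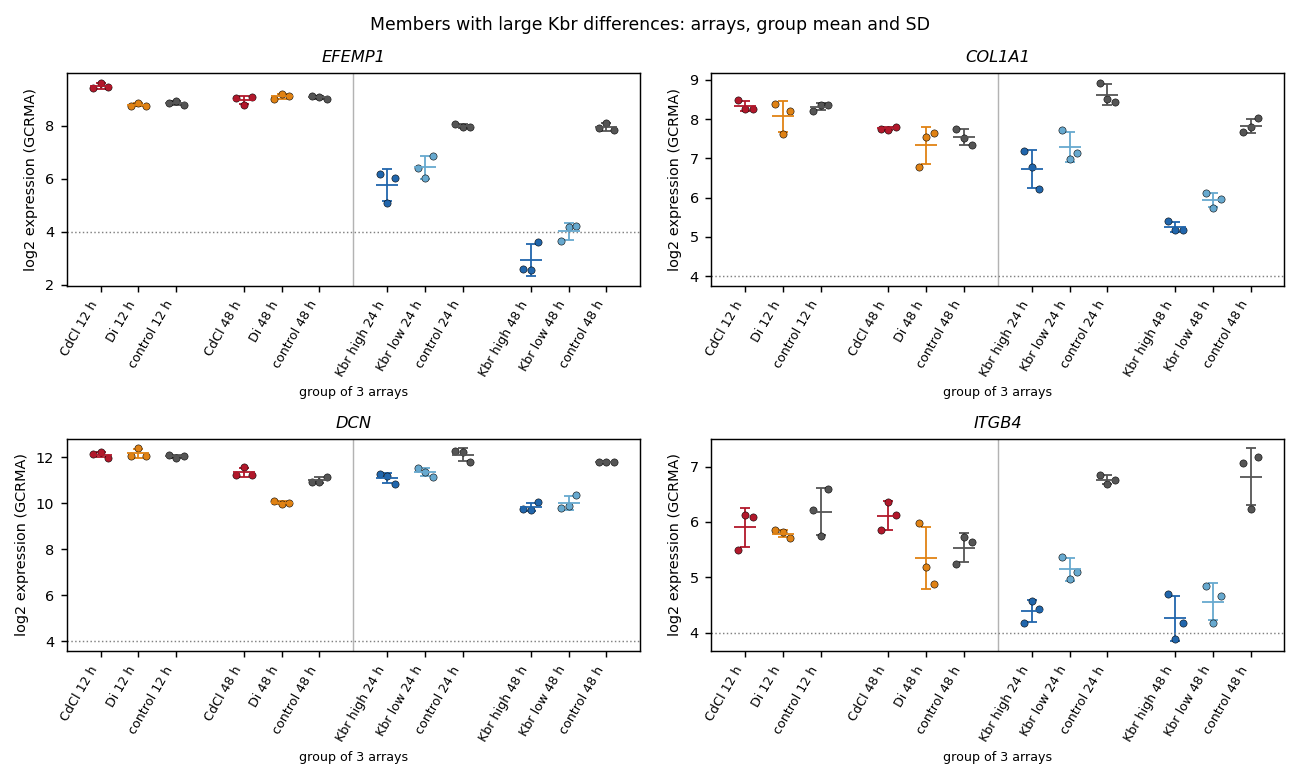
Log2 expression on each array (points), with group mean and SD, of EFEMP1, COL1A1, DCN and ITGB4, with the CdCl and Di set on the left and the Kbr set on the right of each panel and a dotted line at 4. In the Kbr set the treated arrays lie below their control in all 4 panels, and EFEMP1 and COL1A1 stay level with control under CdCl and Di at 48 h.

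Integrin genes differed by chain. ITGB4, whose product pairs with ITGA6 in the hemidesmosome, read 4.18, 4.57 and 4.42 with high Kbr and 5.36, 4.96 and 5.10 with low Kbr at 24 h, against 6.85, 6.69 and 6.76 in control, and 4.70, 3.88 and 4.18 and 4.84, 4.18 and 4.67 at 48 h, against 7.06, 6.23 and 7.17 in control. The treated arrays were lower throughout, with differences of -2.38 ± 0.27 (5.20-fold lower, adjusted p = 9.51e-08), -1.62 ± 0.27, -2.56 ± 0.27 (5.91-fold lower, adjusted p = 3.2e-09) and -2.26 ± 0.27. ITGA6 read 6.25, 6.21 and 6.48 with high Kbr and 6.93, 7.19 and 7.02 with low Kbr at 48 h, against 7.999, 8.04 and 8.16 in control, differences of -1.76 ± 0.12 and -1.02 ± 0.12. With CdCl and Di at 48 h it read 8.48, 8.06 and 8.55 and 8.31, 8.17 and 8.48, against 7.997, 7.998 and 8.13 in control. The rise with CdCl (0.32 ± 0.12, adjusted p = 0.0365) was lost in 6 of 16 alternatives, among them without control replicate 1 or 2 or CdCl replicate 1 or 3 (adjusted p up to 0.189), and ITGB4 passed in no comparison of CdCl or Di with control.

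ITGA3, a laminin-binding alpha chain, read 11.06, 11.05 and 10.95 with CdCl and 10.07, 10.12 and 10.27 with Di at 48 h, against 9.22, 9.39 and 8.95 in control. Both rose clear of it, by 1.83 ± 0.29 (3.56-fold higher) and 0.97 ± 0.29. With Kbr at 48 h it read 8.80, 8.26 and 8.95 at the high dose and 9.59, 8.71 and 9.51 at the low dose, against 10.06, 9.42 and 10.57 in control, where replicate 2 was the lowest array of each group. The high dose gave a difference of -1.35 ± 0.29, and the low-dose difference of -0.75 ± 0.29 was lost without control replicate 1 or 3 or low-dose replicate 2 (adjusted p up to 0.225), in 6 of 16 alternatives in all. With the replicate block it passed (adjusted p = 1.61e-06). The collagen-binding ITGA2 was close to the level of 4. It read 5.13, 4.40 and 4.30 with CdCl at 12 h, against 5.26, 5.39 and 5.55 in control, and 3.41, 3.87 and 3.15 with Di at 48 h, against 4.07, 4.52 and 4.06 in control. The differences of -0.79 ± 0.23 and -0.74 ± 0.23 no longer passed without CdCl replicate 3 (adjusted p = 0.0513) in the first case and without control replicate 2 (adjusted p = 0.0693) or Di replicate 3 (adjusted p = 0.0739) in the second.

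ITGA4, a fibronectin-binding chain best known from leukocytes, read 4.73, 5.09 and 5.11 with CdCl and 5.23, 5.06 and 5.90 with Di at 12 h, against 6.43, 6.54 and 6.48 in control. It fell with both (-1.50 ± 0.29 and -1.08 ± 0.29). The Di call was lost when the fit held the compared groups alone (adjusted p = 0.0538) and without any one of the 3 control arrays (adjusted p = 0.0548 to 0.0844) and without Di replicate 1 or 2 (adjusted p up to 0.133). At 48 h the control of this set had itself dropped to 4.18 ± 0.10 (SD, n = 3), and no difference passed. ITGAV, the alpha chain of the RGD-binding integrins, was bright in all groups, with 13.34, 13.38 and 13.23 with high Kbr and 13.64, 13.55 and 13.43 with low Kbr at 48 h, against 13.81, 13.90 and 13.95 in control. Its differences there were -0.57 ± 0.12 and -0.35 ± 0.12. The low-dose call was lost without control replicate 2 or 3 or low-dose replicate 3 (adjusted p = 0.0535 to 0.0876). With CdCl and Di it read 14.11, 13.75 and 14.15 and 13.84, 14.03 and 14.25, against 14.19, 14.48 and 14.09 in control, without passing.

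ITGB8, which pairs with ITGAV, read 8.70, 8.79 and 9.21 with Di and 10.80, 10.54 and 10.85 with CdCl at 48 h, against 12.20, 12.50 and 11.86 in control. The 3 groups had separate ranges, Di lowest. The falls were -3.29 ± 0.21 (9.78-fold lower, adjusted p = 3.51e-13) and -1.46 ± 0.21 (2.75-fold lower, adjusted p = 2e-06). At 12 h it read 12.43, 12.61 and 12.58 with CdCl and 12.21, 11.20 and 12.07 with Di, against 12.08, 12.06 and 12.07 in control, and neither difference passed (adjusted p = 0.0698 and adjusted p = 0.535). With Kbr at 48 h it read 10.60, 11.000 and 11.21 at the high dose and 10.79, 11.31 and 11.58 at the low dose, against 12.08, 12.26 and 11.75 in control (-1.09 ± 0.21 and -0.80 ± 0.21). A dimmer probe set moved the other way there (0.47 and 0.32), and with the mean of the probe sets neither fall passed (adjusted p = 0.0764 and 0.318).

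ITGB1, the common beta chain, stayed within -0.44 and 0.29 of control in all 8 comparisons. It read 13.13, 13.001 and 13.17 with high Kbr and 13.02, 12.995 and 13.14 with low Kbr at 48 h, against 13.57, 13.48 and 13.43 in control, differences of -0.39 ± 0.09 and -0.44 ± 0.09, and 13.75, 13.76 and 13.84 with Di at 48 h, against 13.47, 13.63 and 13.38 in control, a rise of 0.29 ± 0.09 that was lost without control replicate 3 (adjusted p = 0.0700). ITGB5 read 10.45, 10.56 and 10.43 with Di and 10.05, 9.85 and 10.005 with CdCl at 48 h, against 9.54, 9.67 and 9.70 in control. Both rose (0.85 ± 0.10 and 0.33 ± 0.10). The CdCl call was lost with the mean of its probe sets (adjusted p = 0.125). ITGB3 read 10.56, 10.80 and 10.86 with low Kbr and 10.09, 10.25 and 10.21 with high Kbr at 48 h, against 9.84, 10.16 and 10.55 in control. The low dose gave the one rise of a member with Kbr in the fit without the replicate block (0.56 ± 0.16, adjusted p = 0.00534). It was lost without control replicate 1 (adjusted p = 0.0659) or when the fit held the compared groups alone (adjusted p = 0.0732). The high dose gave a difference of 0.00 (adjusted p = 0.999). With the replicate block ITGB5 rose with high Kbr at 48 h (0.21, adjusted p = 0.0405), where it did not pass without the block. With the mean of its probe sets the ITGB5 difference there was -0.48.

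The doses of Kbr were compared directly. At 48 h 12 of the 46 genes were lower with the high than the low dose and 0 higher, where 23.8% of all genes passed and 17.3% were lower (716 higher and 1922 lower in counts, 1301 and 1329 after centring, when 9 members were lower). LAMB2 (-1.39 ± 0.34), EFEMP1 (-1.10 ± 0.23), LAMA1 (-0.91 ± 0.11), COL27A1 (-0.88 ± 0.14) and LAMA5 (-0.88 ± 0.24) were among them. The high-dose mean of LAMB2 and that of EFEMP1 were under the level of 4, and with 4 in their place the differences were -0.94 and -0.02. COL4A1 averaged 11.20 with the high dose and 11.37 with the low dose and did not pass (-0.17 ± 0.12, adjusted p = 0.331). At 24 h 1 member passed, LAMA1 (-0.41 ± 0.11, adjusted p = 0.031), against 4.39% of all genes passing and 3.71% falling. With the replicate number as a block, which the Kbr arrays bear out, 7 passed at 24 h and 16 at 48 h. In the fit without the block, 0 passed at 24 h without any one of the 6 arrays compared. At 48 h COL4A2 (-0.44) and ITGA3 (-0.60) did not pass without the block (adjusted p = 0.0743 and 0.135). They did with it (adjusted p = 7.01e-05 and 8.91e-05), as did ITGA5, which was higher with the high dose (0.40, adjusted p = 0.0483).

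CdCl and Di were also set against each other. At 12 h 10 members were higher and 2 lower with CdCl than with Di, 26.1% of the members. Of all genes 35.6% passed there, 13.6% higher and 22.1% lower. At 48 h 15 members were higher and 3 lower, 39.1% of them, where 37.6% of all genes passed, 20.5% higher and 17.1% lower. COL12A1 had the widest gap at both times (3.74 ± 0.39 and at least 5.12, its Di mean at 48 h being under 4), and LAMA2 and LAMB3 were higher with CdCl at both (0.83 ± 0.17 and 1.12 ± 0.17 at 48 h). At 48 h ITGB8 (1.83 ± 0.21), COL4A3 (at least 1.10, with 4 in place of its Di mean) and DCN (1.32 ± 0.15), all of which fell with Di, were higher with CdCl than with Di. COL8A1 (-0.86 ± 0.11), ITGB5 (-0.51 ± 0.10) and LAMC1 (-0.47 ± 0.11) were lower with CdCl, and COL4A4 did not pass (0.30 ± 0.35, adjusted p = 0.538).

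Effects were then compared between times, each as the treated minus control difference at 48 h minus that at the earlier time. With CdCl 17 members passed, 12 upward and 5 downward (9 and 6 after centring). Of all genes 24.2% did, 16.4% upward and 7.78% downward, so they leaned upward as well. With Di 18 members passed, 11 upward and 7 downward, where 29.0% of all genes did, 15.1% upward and 13.9% downward. ITGB8 and COL4A4 had changes of -3.04 ± 0.30 and -2.96 ± 0.49 with Di, COL4A3 one of -2.92 with the level of 4 in place of its Di mean at 48 h, and ITGA3 one of 2.19 ± 0.41 with CdCl. With high Kbr 14 members passed, all downward, where 15.0% of all genes passed and 8.10% did so downward, and with low Kbr 5, all downward, where 4.35% did and 1.80% downward. With the replicate block these counts were 22 and 14. EFEMP1 had the widest change at both doses (-2.80 ± 0.33 and -2.37 ± 0.33, or -1.73 for the high dose with 4 in place of its mean at 48 h), and the low-dose count was 3 without control replicate 2 at 48 h or low-dose replicate 1 at 24 h and 8 without low-dose replicate 3 at 48 h.

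The vehicle controls changed with time as well. In the set of CdCl and Di 3 members were higher and 22 lower at 48 h than at 12 h. Of all genes 45.7% passed there, 18.3% higher and 27.3% lower, so they leaned downward as well. ITGA4 (-2.30 ± 0.29) and COL12A1 (-1.43 ± 0.39) fell furthest, and COL4A3 (0.82 ± 0.31), COL22A1 (0.82 ± 0.21) and ITGA7 (0.35 ± 0.14) rose. ITGA7 was close to the level of 4, and its groups overlapped. It read 4.71, 5.36 and 4.43 at 48 h and 4.52, 4.38 and 4.55 at 12 h. In the Kbr set 6 were higher and 3 lower at 48 h than at 24 h, with COL14A1 (1.41 ± 0.28) and COL4A4 (1.35 ± 0.35) the largest rises. Of all genes 12.2% passed there, 5.08% higher and 7.16% lower. COL4A3, under the level of 4 at 24 h, rose by at least 0.53 from that level. That count was 4 without control replicate 1 or 3 at 24 h or replicate 2 at 48 h, and 5 without replicate 1 at 48 h. The sets also differed in level: at 48 h COL4A3 averaged 7.998 ± 0.24 in the control of CdCl and Di and 4.53 ± 0.80 in the control of Kbr (SD, n = 3 each). That gap cannot be told apart from whatever else differed between the sets.

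A list of 62 further genes of matrix assembly and adhesion, 50 of them measured, gives the setting. With Kbr most of those that passed fell: 31 fell and 4 rose with high Kbr at 48 h, 23 and 4 with low Kbr at 48 h, 21 and 0 with high Kbr at 24 h, and 10 and 0 with low Kbr at 24 h. Of all genes 34.5%, 23.2%, 25.3% and 8.28% fell in these comparisons, in the same order, and 27.3%, 23.8%, 15.4% and 6.93% rose. The basement membrane proteoglycan AGRN (-2.55 ± 0.25) and the matricellular TNC (-2.31 ± 0.12) fell furthest with high Kbr at 48 h, and AGRN (-1.64 ± 0.25) and the nidogen NID2 (-1.59 ± 0.17), which links laminin to type IV collagen, with low Kbr. At 24 h these were the plasminogen activator PLAT (-2.19 ± 0.67) and NID2 (-1.36 ± 0.17) with the high dose, and NID2 (-0.88 ± 0.17) and TNC (-0.86 ± 0.12) with the low dose. PLAT varied widely between arrays there, at 4.74 ± 1.16 with high Kbr and 6.92 ± 1.25 in control (SD, n = 3 each). The growth-factor-binding CCN2 rose at 48 h with high and low Kbr (1.47 ± 0.20 and 1.38 ± 0.20), as did the urokinase receptor PLAUR with the high dose (1.20 ± 0.38) and the focal adhesion protein ZYX with the low dose (0.64 ± 0.24).

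With CdCl 13 of these 50 genes rose and 6 fell at 12 h, and 19 rose and 9 fell at 48 h. Of all genes 43.9% passed with CdCl at 12 h, 13.4% higher and 30.5% lower, and 42.7% at 48 h, 20.7% higher and 22.0% lower. The matrix metalloproteinases MMP10, at 7.24 with CdCl and 2.40 in control at 12 h, and MMP1 (2.33 ± 0.39 at 12 h and 3.87 ± 0.39 at 48 h) rose most, with PLAUR at 48 h (2.29 ± 0.38). The control of MMP10 at 12 h and that of MMP1 at 48 h, which averaged 3.17, were under the level of 4. The collagen cross-linking enzyme LOXL1 (-1.16 ± 0.25) and AGRN (-1.04 ± 0.25) fell furthest with CdCl at 12 h, and the focal adhesion protein TNS1 (-3.20 ± 0.46) and NID2 (-1.59 ± 0.17) at 48 h. With Di 0 rose and 6 fell at 12 h, where 1.67% of all genes rose and 4.60% fell. The integrin activator TLN1 (-0.87 ± 0.26) and the nidogen NID1 (-0.76 ± 0.19) fell furthest. At 48 h of Di 12 rose and 11 fell, where 43.0% of all genes passed, 19.1% higher and 23.9% lower. There the urokinase PLAU (1.64 ± 0.35) and PLAUR (1.31 ± 0.38) rose most, and TNS1 (-3.62 ± 0.46) and NID2 (-1.75 ± 0.17) fell furthest. TNS1 averaged 3.07 with CdCl and 2.66 with Di at 48 h, both under the level of 4, against 6.27 in control. The size of its falls, and which compound lowered it more, are thus not established. The 4 measured basement membrane genes of the list (NID1, NID2, HSPG2 and AGRN) all fell with both doses of Kbr at 48 h.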

How the data were processed

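Biotinylated cRNA from total RNA was put on Affymetrix arrays with 1 colour, as the labels' protocols state. The files deposited by the authors hold log2 values for each probe set from GCRMA, per the submitters' processing notes. The sources used here give neither the version of GCRMA nor its settings. The values run from 0.714 to 16.1, with array medians of 2.91 to 3.02. No array is a copy of another. Background correction alters the size of differences of dim genes, and normalization can partly remove a change shared by most genes. The number of arrays limits precision.

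Groups and replicate numbers came from the sample descriptions. Probe sets above 4 on at least 3 of the 36 arrays were kept, those naming 1 gene were used, and each gene was read from its probe set with the highest mean, leaving 11092 genes. Of the 46 members, 30 had several kept probe sets. All arrays entered 1 model of 12 means, fitted with limma 3.58.1 in R 4.3.3 (lmFit and eBayes, Benjamini-Hochberg adjustment over all genes, threshold 0.05), which was tested on simulated data. SEs are the model's. Where the lower group averaged under 4, the fold is a lower bound, taken from the higher group's mean and 4. Promoter sequences came from RefSeq (GRCh38.p14), which held an entry for 32 of the 46 members.

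The members, the further gene lists and the markers were chosen with earlier results of these data known. All members may be named, with every array given for 27 of them by rule in at least 1 comparison (13 of 16 index members that were measured, and the 4 largest passing rises and falls of each comparison with control), and the 2 largest passing rises and falls of the further list. Replicate numbers run from 1 to 3 in the labels of each group. Among Kbr arrays, deviations from the group mean of same-numbered arrays correlated in all 45 pairs (r = 0.218 to 0.701), so the numbers were taken, on the data alone, to pair those arrays. In the CdCl and Di set 8 of 45 pairs exceeded 0.1 (r = -0.348 to 0.416), and they were not.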

Additional observations from a re-analysis of the deposited data

Results flagged for a closer look

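The change of a treatment's effect between times was tested as a difference of differences in limma, and these results passed. With CdCl 17 of the 46 genes had an effect that differed between 48 h and 12 h. ITGA3 had the largest upward change (2.19), followed in size by falls of COL4A4 (-1.96) and ITGB8 (-1.93). With Di 18 did, among them COL4A3 (-3.56), ITGB8 (-3.04) and COL4A4 (-2.96). COL4A3 averaged under the level of 4 with Di at 48 h, and with 4 in its place its change was -2.92, so its rank before the other genes is not established. With high Kbr 14 differed between 48 h and 24 h, among them EFEMP1 (-2.80, or -1.73 with 4 in place of its high-dose mean at 48 h), COL4A3 (-1.83) and LAMA5 (-1.35). With low Kbr 5 did, among them EFEMP1 (-2.37), COL4A3 (-1.78) and DCN (-1.02). COL4A3 was under the level of 4 in the treated Kbr groups at both times and rose in the control, so its change there is set by the control arrays.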

How the results depend on the processing

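Members called kept to within 1.5 times of the counts reported for CdCl at both times against control, Di at 48 h, both doses of Kbr at 48 h and high Kbr at 24 h, under every alternative run (quantile normalization, median centring, array weights, no filter, a filter at 6, probe sets averaged per gene, a variance trend, fits of the compared groups or of the set alone, the replicate block and leaving out each array), with 17 to 28, 20 to 29, 22 to 30, 32 to 37 (high) and 26 to 36 (low), and 23 to 33 members. Counts for CdCl against Di at 48 h, the change of the Di effect and the control at 48 h against 12 h did so too. The rest moved under some setting. When the fit held the compared groups alone there were 7 for Di at 12 h, 5 for low Kbr at 24 h, 0 for high against low Kbr at 24 h and 5 at 48 h, 8 for the change of the high Kbr effect, 1 for that of low Kbr and 0 for the control at 48 h against 24 h. With only the arrays of the set there were 21 for Di at 12 h, 0 for the change of the low Kbr effect and 4 for the control at 48 h against 24 h. High against low Kbr at 24 h gave 0 after quantile normalization, 0 after median centring and 3 with the mean of probe sets. With array weights there were 22 for Di at 12 h, 22 for CdCl against Di at 12 h and 27 for the change of the CdCl effect. The causes were not tested.

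With the replicate block 20 members were called for Di at 12 h, 7 for high against low Kbr at 24 h, 22 for the change of the high Kbr effect and 14 for that of low Kbr, and no other count moved by over 1.5 times. In the CdCl and Di set, where the numbers do not pair the arrays, the same-number correlation had a median of -0.01. Leaving out 1 array gave 17 to 22 (CdCl 12 h), 20 to 22 (CdCl 48 h), 4 to 9 (Di 12 h), 22 to 27 (Di 48 h), 23 to 31 and 32 to 34 (high Kbr 24 h and 48 h), 9 to 19 and 29 to 32 (low Kbr 24 h and 48 h), 0 to 0 and 10 to 13 (high against low Kbr), 11 to 13 and 15 to 18 (CdCl against Di), 12 to 16, 14 to 18, 11 to 15 and 3 to 8 (changes with CdCl, Di, high and low Kbr), and 20 to 22 and 4 to 11 (controls). High against low Kbr at 24 h had 1 call at the threshold and none without any one of its arrays.

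Of 198 differences from control called among the 46 genes, 126 kept direction and call under every alternative, 71 lost it under at least 1 and 1 reversed. Of 170 not called, 64 were called under at least 1. With the mean of probe sets FN1 reversed to 0.0039 with high Kbr at 48 h and 0.31 with CdCl at 12 h, and ITGB5, not called, to -0.48 and -0.35 with high and low Kbr at 48 h. COL11A2, not called, ranged from -0.44 (reversed and called, without Di replicate 1) to 0.45 with Di at 48 h when 1 array was left out. Background limits the folds of groups averaging under 4, which are lower bounds.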
